A study of Mus musculus with 42 samples.

Results

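The arrays of mouse liver after 21 days of a high-fat diet (HFD) carried replicate numbers 1 to 8, and the 4 arrays numbered 5 to 8 (high-numbered arrays) were compared with the 4 numbered 1 to 4 (low-numbered arrays). These 8 arrays, of 42 in all, were split by the numbers in their titles. This split was chosen with earlier results of these data known. The mice of the whole series were WT males of the inbred strain C3HeB/FeJ, housed singly and fed at random, and all liver RNA was extracted with a kit that includes DNase treatment. The mice of the 8 arrays of 21 days were 17 weeks old. They stand beside 18 control arrays of mice of 15 to 17 weeks on a low-fat diet, and beside 8 arrays each after 7 days (15 weeks of age) and 14 days (16 weeks) of HFD, which also carry the numbers 1 to 8. The labels do not say what the numbers stand for, which animal each array came from, or on which day a liver was taken, so every p-value below rests on how far these arrays scatter, and some of that scatter may come from the handling of samples. The titles of the controls and of the 21-day arrays carry the word reanalysis and those of 7 and 14 days do not.

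The liver responds to dietary fat mainly through the nuclear receptor PPAR-alpha, which is activated by fatty acids and drives genes of fat oxidation in mitochondria, peroxisomes and the endoplasmic reticulum. Other hepatic programmes, such as bile acid and cholesterol synthesis, glucose handling and the circadian clock, vary with feeding and time of day. Some RNAs stay mainly in the nucleus: Malat1 is a long noncoding RNA of nuclear speckles, where splicing factors gather, and transcripts of several splicing regulators and CLK kinases are partly held back in the nucleus with introns retained. Here the question is which genes differed between the low-numbered and high-numbered arrays, and how this bears on the change after 21 days of diet.

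All values below are on the log2 scale of the deposited table, 1 value per gene for 17989 genes, and a difference of 1 is 2-fold. The medians of the 8 arrays over all probe sets lay between 3.12 and 3.28. Genes of hepatocytes (10 markers such as Alb and Apoa1) averaged 11.49 to 11.96 on the low-numbered and 11.67 to 12.09 on the high-numbered arrays, so the arrays carried the labelled tissue. The smallest SD of the difference between 2 of these arrays was 0.351, so none was a copy of another. The first principal component of the 8 arrays held 41.8% of their variance and placed the low-numbered arrays between -35.6 and -16 and the high-numbered arrays between 17.7 and 30.1, with no overlap. The second component (26.4%) set the high-numbered array 6, at -40.6, apart from the other 7, which lay between -18.6 and 20.1.

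Of the 17989 genes, 3909 (21.7%) differed between the low-numbered and high-numbered arrays at an adjusted p under 0.05 (limma on the 24 HFD arrays, Benjamini-Hochberg over all genes, 2-sided), a result termed called below. In the high-numbered arrays 1971 genes were higher (11%) and 1938 lower (10.8%). The differences were mostly small, with a median size of 0.55 among called genes against 0.19 over all genes and a median standard error of 0.14. At least 2-fold differences were called for 271 genes, of which 222 were higher and 49 lower. For 3298 genes (18.3%) the lowest array of one set lay above the highest of the other, with the high-numbered arrays higher for 8.94% of all genes and lower for 9.39%. With the 8 arrays of 21 days fitted alone, 2268 genes were called, and leaving out each array in turn gave 2807 to 3779. The balance of rises and falls depended on the scale: with each array centred on its own median, which moved the median over all genes from -0.03 to 0.08, 76.0% of the calls were higher in place of 50.4%.

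The largest rise was that of Malat1, the speckle RNA, at 5.35-fold. Malat1 read 7.41, 6.96, 6.20 and 7.32 on the low-numbered arrays and 9.57, 9.15, 9.45 and 9.40 on the high-numbered arrays. All 4 high-numbered arrays lay at least 1 unit above all low-numbered ones, and the difference was 2.42 ± 0.27 (SE; 95% interval 1.87 to 2.97, adjusted p = 1.96e-06). The 18 controls spanned 5.49 to 9.54 (median 8.47), so that both sets except 1 high-numbered array lay within the range of controls. Of the 6 measured nuclear-retained and long noncoding RNAs in the list to which Malat1 belongs, it was the 1 called, beside 21.7% of all genes.

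Genes of RNA splicing were higher in the high-numbered arrays as a group. Of 34 measured splicing regulators and CLK kinases, 28 rose and 0 fell, beside 11% of all genes higher and 10.8% lower. The median difference was 0.86 against -0.03 over all genes (the list was drawn up with earlier results of these data known). Their mean was 5.90, 5.65, 5.35 and 5.89 on the low-numbered arrays and 6.80, 6.56, 6.67 and 6.74 on the high-numbered arrays, against 5.68 to 6.70 on the 18 controls. Every high-numbered array stood above every low-numbered array. Arrays 2 and 3 lay below the range of the controls, and arrays 5 and 8 lay above it. With each 21-day array left out in turn, 23 to 29 members were called higher.

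Luc7l3, a protein of the U1 snRNP that helps choose 5′ splice sites, read 5.11, 4.83, 4.70 and 4.95 on the low-numbered arrays and 6.99, 7.22, 7.07 and 6.76 on the high-numbered arrays. Srsf5, a serine- and arginine-rich splicing factor, read 6.96, 6.92, 6.17 and 7.17 against 9.29, 8.66, 8.96 and 8.72 in the same order. Clk1, a kinase that phosphorylates such factors, read 6.16, 5.99, 5.58 and 6.40 against 8.34, 8.41, 8.17 and 7.67. The sets did not overlap for any of these genes, and the folds were 4.32, 4.28 and 4.33 (adjusted p = 1.11e-07, 2.45e-07 and 1.33e-06). Both probe sets of Srsf5 gave a rise, of 2.10 and 2.01. Other members called higher (picked after their values were seen) were Pnisr (1.83), the kinase Clk4 (1.68), Rbm39 (1.56), Luc7l2 (1.52), Hnrnph1 (1.38) and the helicase Ddx17 (1.26). Srsf3, another member of the same factor family, was not called (log2 0.27, adjusted p = 0.217).

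**Figure D1:**
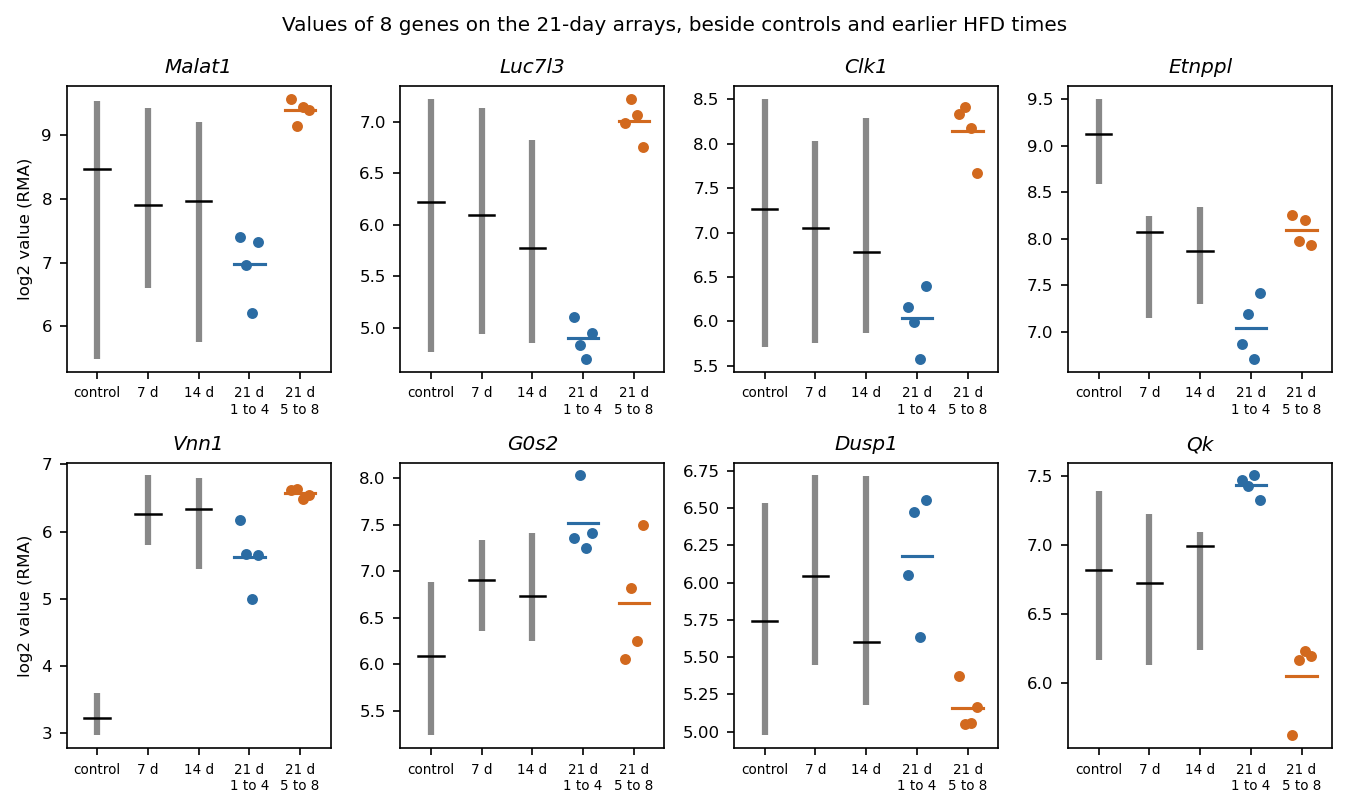
Log2 values of 8 genes, 1 panel each: each point is a 21-day array, blue for arrays 1 to 4 and orange for arrays 5 to 8, with a line at the set's mean, and each grey bar is the range over the controls, 7-day or 14-day arrays with a line at its median. Malat1, Luc7l3, Clk1, Etnppl, Vnn1, Dusp1 and Qk show no overlap between the sets, and G0s2 overlaps through array 8 at 7.50.

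Among the other large rises were genes with varied roles. Serpina4-ps1, a serpin pseudogene, read 3.97, 3.62, 3.69 and 3.25 on the low-numbered arrays and 6.15, 5.84, 5.74 and 5.66 on the high-numbered arrays, a 4.65-fold difference. Tasor, a subunit of the HUSH complex that silences repeats, read 4.24, 3.69, 3.38 and 3.95 against 5.82, 5.64, 5.78 and 5.69 (3.77-fold). Clec2d, a C-type lectin, averaged 6.30 and 8.29 (3.97-fold). The sets did not overlap for any of these. Cyp2d13 (3.63-fold) and the pseudogene Cyp2d37-ps (3.69-fold) rose too, and these near-identical members of the Cyp2d cluster may share signal. Hmgb1, a chromatin protein, averaged 2.93 and 4.93 (4.02-fold), with only the low-numbered mean near background. The gene has many near-identical copies, so the identity of its signal is uncertain. Zfp971 (3.82-fold) and Usp17ld (3.74-fold) completed the 12 largest rises with the splicing genes above. Usp17ld was not called with all 42 arrays in the fit (adjusted p = 0.0682).

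The largest fall among the genes that the naming rule covers was that of Prr23a1, a proline-rich protein of unclear role, which read 6.54, 6.34, 6.09 and 6.02 on the low-numbered arrays and 3.15, 3.06, 4.44 and 5.06 on the high-numbered arrays (4.98-fold lower, adjusted p = 1.17e-05). C2cd4b, a nuclear protein with a calcium-binding type domain, read 5.97, 6.04, 6.01 and 5.63 against 3.68, 4.10, 4.34 and 4.68. Rmrp, the RNA of the RNase MRP particle that cuts precursor rRNA, read 9.74, 10.03, 10.03 and 8.25 against 7.55, 8.15, 8.02 and 7.98 (adjusted p = 0.00753). In each of these the sets did not overlap, although array 4 of Rmrp, at 8.25, lay far below the other low-numbered arrays and close to the high-numbered ones.

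Alas1, the first and rate-limiting enzyme of haem synthesis, averaged 8.64 on the low-numbered and 7.29 on the high-numbered arrays, but high-numbered array 8, at 9.17, was the highest of all 8. Its call (adjusted p = 0.0485) ended without array 1, 3, 4, 5, 6 or 7 (up to 0.168). Qk, an RNA-binding protein that regulates splicing and mRNA stability, read 7.47, 7.43, 7.50 and 7.33 against 5.62, 6.17, 6.23 and 6.19 in its brightest probe set. Its other probe sets disagreed: 1 fell by 0.86 and 1 rose by 0.39, both called, so probe sets of one gene moved in opposite directions. Wrnip1, which works at stalled replication forks, fell by 1.51 in its brightest probe set, while its other one read -0.18 (adjusted p = 0.543). The remaining falls among the 12 largest were Kcnd3os (-1.51), Rtn4rl2 (-1.35), Rprl2 (-1.28), AA386476 (-1.27), Fignl2 (-1.25) and Frmd6 (-1.15), none with overlapping sets.

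Immediate early genes, which are transcribed within minutes of a stimulus such as a growth factor, hormone or tissue stress, were lower in the high-numbered arrays. Of 24 measured members 10 fell and 0 rose, beside 10.8% of all genes that fell, and the median difference was -0.44. Their mean was 4.51, 4.68, 4.58 and 4.57 on the low-numbered arrays and 4.21, 4.16, 4.28 and 4.22 on the high-numbered arrays, without overlap. The 18 controls ran from 4.15 to 4.70, so both sets lay within their range. Across scalings and single arrays left out, 7 to 11 members were called lower and 0 higher, and 5 were called with the 8 arrays fitted alone.

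The members with the largest falls were Klf4, a zinc finger transcription factor, and Dusp1, a phosphatase that switches off MAP kinases. Klf4 read 3.39, 3.92, 4.44 and 3.50 on the low-numbered and 2.64, 2.22, 3.02 and 3.17 on the high-numbered arrays (adjusted p = 5.72e-04). Dusp1 read 6.05, 6.48, 5.63 and 6.56 against 5.37, 5.05, 5.06 and 5.17 (adjusted p = 0.00334). Fos, a component of the AP-1 transcription factor, read 3.53, 3.45, 3.82 and 3.27 against 2.38, 2.80, 2.80 and 2.88 (log2 -0.80, adjusted p = 1.11e-04). The sets did not overlap in these 3 genes. Jund (-0.88), Junb (-0.47), Fosl2 (-0.48), Ier3 (-0.50), Klf2 (-0.48) and Egr3 (-0.44) fell too, as did Socs3 (-0.60), an inhibitor of cytokine signalling whose call ended without array 3 or 8 (adjusted p up to 0.105). Of these members Fos, Jund, Junb, Fosl2, Ier3, Klf2 and Egr3 were picked after their values were seen. On the high-numbered arrays Fos, Ier3 and Klf4 lay near the background level of 2.86, the 95th percentile of olfactory receptor genes. Egr1, the best known of the early growth response factors, was not called (log2 -0.22, adjusted p = 0.197).

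The stretches of 250 bases before the starts of Dusp1 and Fos are shown because these fast-responding genes fell together. They are from RefSeq (GRCm38.p6), 5′ to 3′ on the gene's strand, with TGACG, the core of the element bound by CREB and related factors, in capitals where this orientation holds it, and its palindrome TGACGTCA in capitals whole.
Dusp1 (chr17:26508473-26508722, minus strand): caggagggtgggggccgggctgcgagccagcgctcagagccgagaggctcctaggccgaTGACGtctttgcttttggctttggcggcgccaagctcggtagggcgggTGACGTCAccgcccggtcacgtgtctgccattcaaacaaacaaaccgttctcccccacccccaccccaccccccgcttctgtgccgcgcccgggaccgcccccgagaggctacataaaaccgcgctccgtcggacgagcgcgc
Fos (chr12:85473640-85473889, plus strand): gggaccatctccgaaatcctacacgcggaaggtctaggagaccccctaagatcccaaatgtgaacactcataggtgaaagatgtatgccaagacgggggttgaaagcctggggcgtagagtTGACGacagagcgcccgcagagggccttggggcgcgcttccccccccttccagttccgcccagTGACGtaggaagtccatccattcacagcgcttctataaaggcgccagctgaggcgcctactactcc
TGACG on either strand occurred in 5 of the 9 fallen immediate early genes that had a promoter entry (Fos, Junb, Klf2, Klf4 and Dusp1), beside 17.8% of all 32851 promoter entries, counted over the same 250 bases. TGACGTCA, which contains TGACG, occurred in 1 of the 9 (Dusp1), beside 1.55% of all entries. A match describes these letters and not a bound site. The immediate early genes that were not called were not counted, so the share cannot be tied to the fall.

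The counts of each list below stand beside 11% of all genes higher and 10.8% lower, and a share near these says nothing particular of a list. Genes of fat use differed in part. Of 32 measured PPAR-alpha targets, 8 were higher and 1 was lower in the high-numbered arrays, with a median difference of 0.20. Without array 3, 5 were higher, as with quantile normalization. Vnn1, a pantetheinase that is among the PPAR-alpha targets most responsive to fat, read 6.17, 5.67, 5.0 and 5.66 on the low-numbered and 6.62, 6.64, 6.48 and 6.55 on the high-numbered arrays (log2 0.95, adjusted p = 0.00807). Abcd2, a transporter of very long fatty acids into peroxisomes, read 6.21, 6.18, 5.69 and 5.92 against 6.97, 7.13, 6.91 and 6.85 (log2 0.96, adjusted p = 0.00457). Acsm3, a medium-chain acyl-CoA synthetase, rose by 1.06. The sets did not overlap for these 3 genes.

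Other targets of the same receptor were not called. The fatty acid omega-hydroxylase Cyp4a14 read 6.84, 6.31, 5.36 and 5.62 against 6.97, 7.30, 7.22 and 6.83 (log2 1.05, adjusted p = 0.0787), with array 8 just below low-numbered array 1. Its call appeared without array 1, with the 8 arrays fitted alone and with all 42. Cyp4a10 (log2 0.53, adjusted p = 0.231), Cyp4a31 (log2 0.05, adjusted p = 0.932), the fat uptake receptor Cd36 (log2 0.64, adjusted p = 0.313), the fasting hormone Fgf21 (log2 -0.54, adjusted p = 0.168), the lipase inhibitor Angptl4 (log2 -0.24, adjusted p = 0.263) and Pdk4, which restrains pyruvate oxidation (log2 -0.34, adjusted p = 0.611), were not called either, except Cd36 without array 5.

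Of 20 measured genes of mitochondrial beta-oxidation and ketogenesis, 7 rose and 2 fell (3 and 2 with quantile normalization). Etfdh, which passes electrons from fat oxidation to the respiratory chain, read 10.02, 9.54, 9.42 and 9.73 against 10.57, 10.33, 10.71 and 10.53, and Acadm, the medium-chain acyl-CoA dehydrogenase, read 10.24, 9.77, 9.62 and 10.01 against 10.45, 10.29, 10.68 and 10.65. Neither overlapped (adjusted p = 1.25e-04 and 9.23e-04). Eci1 (0.53), Decr1 (0.45), Hadhb (0.46) and Acat1 (0.46) rose, named after their values were seen. In the other direction Acads, the short-chain dehydrogenase, fell by 0.76 and Etfb by 0.35; the call of Acads ended without array 1, 4, 6 or 7 (adjusted p up to 0.122) and that of Etfb without array 1, 2, 5 or 6 (up to 0.0833).

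Among 21 measured genes of lipid droplets and lipolysis 1 rose and 3 fell (1 with the 8 arrays alone). G0s2, which inhibits the triglyceride lipase ATGL, read 7.36, 8.03, 7.25 and 7.42 on the low-numbered arrays and 6.05, 6.82, 6.25 and 7.50 on the high-numbered arrays. Array 8 lay among the low-numbered arrays, so the sets overlapped, and the fall of 0.86 (adjusted p = 0.0192) was not called without array 2, 5 or 7 (up to 0.0851) or with the 8 arrays fitted alone. Plin5, a droplet coat protein of oxidative tissues, fell by 0.60 without overlap, and Hsd17b13, a droplet enzyme of hepatocytes, rose by 0.51. Plin2, the main droplet coat protein of fatty liver, was not called (log2 0.33, adjusted p = 0.142), except without array 1. The third fallen member was Plin1 (-0.56).

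Etnppl, which breaks down phosphoethanolamine, a precursor of the membrane lipid phosphatidylethanolamine, read 6.87, 7.19, 6.71 and 7.42 on the low-numbered arrays and 8.26, 7.98, 8.21 and 7.93 on the high-numbered arrays. The sets did not overlap, and the difference was 1.05 ± 0.21 (SE; adjusted p = 0.00106). Of the 27 measured genes of phosphatidylethanolamine and phosphatidylcholine metabolism 6 rose and 2 fell (5 fell without array 4 and 0 without array 5; 9 rose with arrays centred). Gpcpd1, a glycerophosphocholine phosphodiesterase, rose by 1.01, and Cept1 (0.74) and Chpt1 (0.50), which make the final step of phospholipid synthesis, rose too (both named after their values were seen). The fallen genes were Ptdss2 (-0.55), a phosphatidylserine synthase, whose call ended without array 5 (adjusted p = 0.0562), and Lpcat4 (-0.41), whose call ended without any 1 of arrays 1, 2, 3, 5, 7 or 8 (up to 0.127).

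Few genes of de novo lipogenesis were called: of 21 measured genes 1 was called, Mlxipl, the glucose-sensing factor ChREBP, at 0.67 (adjusted p = 0.0555 without array 3). Fatty acid synthase (Fasn) read 9.76, 9.52, 8.99 and 9.08 against 9.18, 8.34, 8.90 and 10.16 (log2 -0.19, adjusted p = 0.752), with array 8 the highest and array 6 the lowest of the 8. The desaturases Scd1 (log2 0.03, adjusted p = 0.925) and Fads2 (log2 -0.13, adjusted p = 0.743), the acyltransferase Gpam (log2 0.11, adjusted p = 0.793) and the master regulator Srebf1 (log2 -0.58, adjusted p = 0.119) were not called; Srebf1 was called, as lower, without array 8 and with quantile normalization. Of 17 measured genes of cholesterol synthesis and uptake 6 rose and 1 fell, but 2 rose without array 3, and 1 rose and 3 fell with quantile normalization. Cyp51, the lanosterol demethylase, rose by 0.66 (not called without array 3, adjusted p = 0.0515). Idi1 (0.66) lost its call without array 2, 3, 4, 6 or 7 (up to 0.129), and Mvd (-0.57) without array 1, 2, 4, 5, 6 or 7 (up to 0.128).

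Of 23 measured genes of bile acid synthesis and transport 10 rose and 0 fell in the high-numbered arrays, beside 11% and 10.8% of all genes, with a median difference of 0.45, and 8 to 12 rose with each array left out. Slco1a4, a sinusoidal uptake transporter, read 6.73, 6.57, 6.77 and 6.81 against 7.62, 7.95, 8.08 and 7.69, and the related Slco1a1 averaged 9.11 and 9.97. Both sets were apart in each gene (adjusted p = 0.00125 and 0.00208). Members named after their values were seen were the receptor Nr1h4 (FXR; 0.79), the sterol transporter Abcg5 (0.84), the conjugating enzyme Baat (0.55) and the bile salt export pump Abcb11 (0.65). The rate-limiting enzyme of the pathway, Cyp7a1, was not called (log2 0.42, adjusted p = 0.545), nor was Cyp8b1, which sets the share of cholic acid (log2 -0.60, adjusted p = 0.179), except, as lower, with quantile normalization.

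Of 27 measured xenobiotic P450 and conjugation genes 9 rose and 1 fell (4 and 3 with quantile normalization). Cyp3a13 rose by 0.89 and Cyp2c50 by 0.83, while the glutathione transferase Gstm2 fell, from 5.72, 5.67, 5.68 and 5.60 on the low-numbered to 4.66, 4.41, 5.12 and 5.15 on the high-numbered arrays. These sets did not overlap.

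Of 20 measured genes of glycolysis and the carbohydrate response 6 rose and 1 fell. Gckr, which holds glucokinase in the nucleus, read 8.38, 8.11, 7.93 and 8.77 against 9.41, 8.85, 9.27 and 9.39 (adjusted p = 3.30e-04). Rgs16, a regulator of G protein signalling that follows feeding and carbohydrate supply, read 7.22, 6.15, 7.03 and 6.88 against 8.46, 7.89, 7.87 and 7.97; its sets did not overlap, but its call (adjusted p = 0.0208) ended without array 2 or 5 (up to 0.0803), with quantile normalization and with all 42 arrays. Gys2, liver glycogen synthase (0.92), and Ugp2, which makes its substrate (0.74), rose and were named after their values were seen. Taldo1 of the pentose phosphate pathway fell by 0.59.

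Of 25 measured gluconeogenic and insulin-repressed genes 1 rose and 3 fell, 3 rose without array 1 and 4 without array 6 or with arrays centred. Ppargc1a, the coactivator PGC-1alpha, rose from 3.40 to 4.24 (adjusted p = 6.54e-04). Irs2, an adaptor of the insulin receptor that insulin represses, fell from 3.66 to 2.98 (adjusted p = 0.00327), and Crtc2 fell by 0.57 but not without array 1, 6 or 7 (adjusted p up to 0.106). The enzymes Pck1 (log2 -0.37, adjusted p = 0.455) and G6pc (log2 -0.60, adjusted p = 0.18) and the insulin-repressed Igfbp1 (log2 -0.56, adjusted p = 0.232) were not called.

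Of 31 measured genes of amino acid breakdown 5 rose and 0 fell (8 rose with arrays centred), led by Tdo2 (0.76) and Kynu (0.74) of tryptophan catabolism. Acmsd, a later enzyme of that pathway, was not called (log2 -0.03, adjusted p = 0.911, 95% interval -0.32 to 0.26).

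Of 24 measured clock genes and outputs 6 rose and 2 fell. Wee1, a cell-cycle kinase with clock-driven expression in liver, read 4.81, 4.15, 4.26 and 5.09 against 5.85, 5.62, 5.76 and 6.27 without overlap (adjusted p = 0.0161; not called without array 2 or 3, up to 0.0537). Nampt, the NAD-producing enzyme, rose by 0.97, and Noct, the rhythmic phosphatase nocturnin, fell by 1.05. Core clock genes called higher, named after their values were seen, were Per3 (log2 0.80, adjusted p = 0.00909) and Rora (log2 0.57, adjusted p = 0.00759), both without overlap, and Clock (log2 0.62, adjusted p = 0.0215), whose sets overlapped. The clock genes of the panel were not called: Per1 (log2 -0.12, adjusted p = 0.65), Per2 (log2 0.04, adjusted p = 0.913), Dbp (log2 0.34, adjusted p = 0.58), Nr1d1 (log2 0.02, adjusted p = 0.965), Arntl (log2 -0.22, adjusted p = 0.595) and Ciart (log2 0.04, adjusted p = 0.94). Dbp ranged from 6.59 to 8.11 over the 8 arrays, and both extremes of Nr1d1, at 8.73 and 7.14, were high-numbered arrays.

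Of 26 measured glucocorticoid receptor targets 2 rose and 3 fell (1 fell without array 3 or without array 5). The receptor Nr3c1 rose by 0.49, Dusp1 fell as above, and Ddit4 fell by 0.54 (not called without array 3 or 5, adjusted p up to 0.0748). Fkbp5 (log2 0.56, adjusted p = 0.0991) and Tat (log2 0.03, adjusted p = 0.949) were not called, except Fkbp5 without array 6 or with arrays centred. Of 26 male-biased liver genes 6 rose and 2 fell (3 rose without array 6, with quantile normalization or with the 8 arrays alone), among them the complement gene C8a (0.89) and, downward, Ihh (-0.66) and Moxd1 (-0.52), the last near background. Hsd3b5, a strongly male-biased steroid dehydrogenase, was not called (log2 0.51, adjusted p = 0.123), except without array 1. Of 19 female-biased genes 1 rose (Abcd2) and 1 fell (Cux2, -0.56).

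Of 19 measured heat shock and chaperone genes 7 rose, 0 fell and 12 were not called, beside 11% of all genes higher, and the median difference was 0.11 (range -0.39 to 0.96). Without array 8, 2 fell. Hsp90b1, the endoplasmic reticulum member of the HSP90 family, read 10.17, 9.60, 9.37 and 9.76 against 10.36, 10.76, 10.90 and 10.67, and Dnajc3, a co-chaperone of the same compartment, read 8.80, 8.42, 8.04 and 8.33 against 9.21, 9.43, 9.50 and 9.29. Neither overlapped. Of 30 genes of the integrated stress and unfolded protein response 1 rose and 3 fell: Pdia6 (0.42; not called without array 2, 3, 4, 6 or 7, adjusted p up to 0.142), Cebpb (-0.64) and Sdf2l1 (-0.61; not called without array 1, 4, 5, 6 or 7, up to 0.152) were the named members. The count of falls there was 1 without array 1, 5, 6 or 7, and 6 with quantile normalization.

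In the respiratory chain and the ribosome, the shares called higher were near that over all genes (11%). Of 68 measured respiratory and ATP synthase subunits 7 rose (10.3%) and 12 fell (17.6%), with Ndufs1, the largest subunit of complex I, up by 1.2 and Uqcr11 of complex III down by 0.91 and Ndufa11 down by 0.73. Of 50 cytosolic ribosomal proteins 4 rose (8%) and 9 fell (18%), with Rpl4 up by 0.73 and Rpl37a down by 0.74. These balances turned with the scale: with each array centred on its median 11 respiratory genes rose and 5 fell, and 7 ribosomal genes rose and 3 fell, whereas quantile normalization gave 3 and 26, and 2 and 15. The falls numbered 5 for the respiratory list without array 1 or 2 and 7 without array 5 or 7, and for the ribosomal list 5 without array 2 or 3 and 3 without array 5.

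The smaller groups gave few calls. Of 30 proteasome subunits 6 rose and 2 fell, but 1 rose without array 3, 4 or 7 or with quantile normalization, 3 without array 2 or 6, and 11 with arrays centred. Of 23 interferon response genes 5 rose (3 without array 3), led by the GTPase Iigp1 (0.98) and the factor Irf1 (0.64), and 1 fell (Oasl1, -0.77, not called without array 1, 2, 4, 5 or 6, adjusted p up to 0.0935). Of 26 acute phase genes 3 rose and 1 fell, but 0 rose without array 3, without array 7 or with quantile normalization, 5 without array 1 or 8, and 6 with arrays centred. Of 19 cell cycle genes 1 rose and 3 fell, among them Cdk1 (-0.64) and Plk1 (-0.62). Of 18 genes of lipoprotein assembly 1 rose, Apob, the structural protein of VLDL (0.92), and 3 fell (1 without array 6, 7 with quantile normalization), among them the exchangeable apolipoprotein Apoc4 (-0.72) and the cholesterol acyltransferase Lcat (-0.80, not called without array 6, adjusted p = 0.0619).

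**Figure D2:**
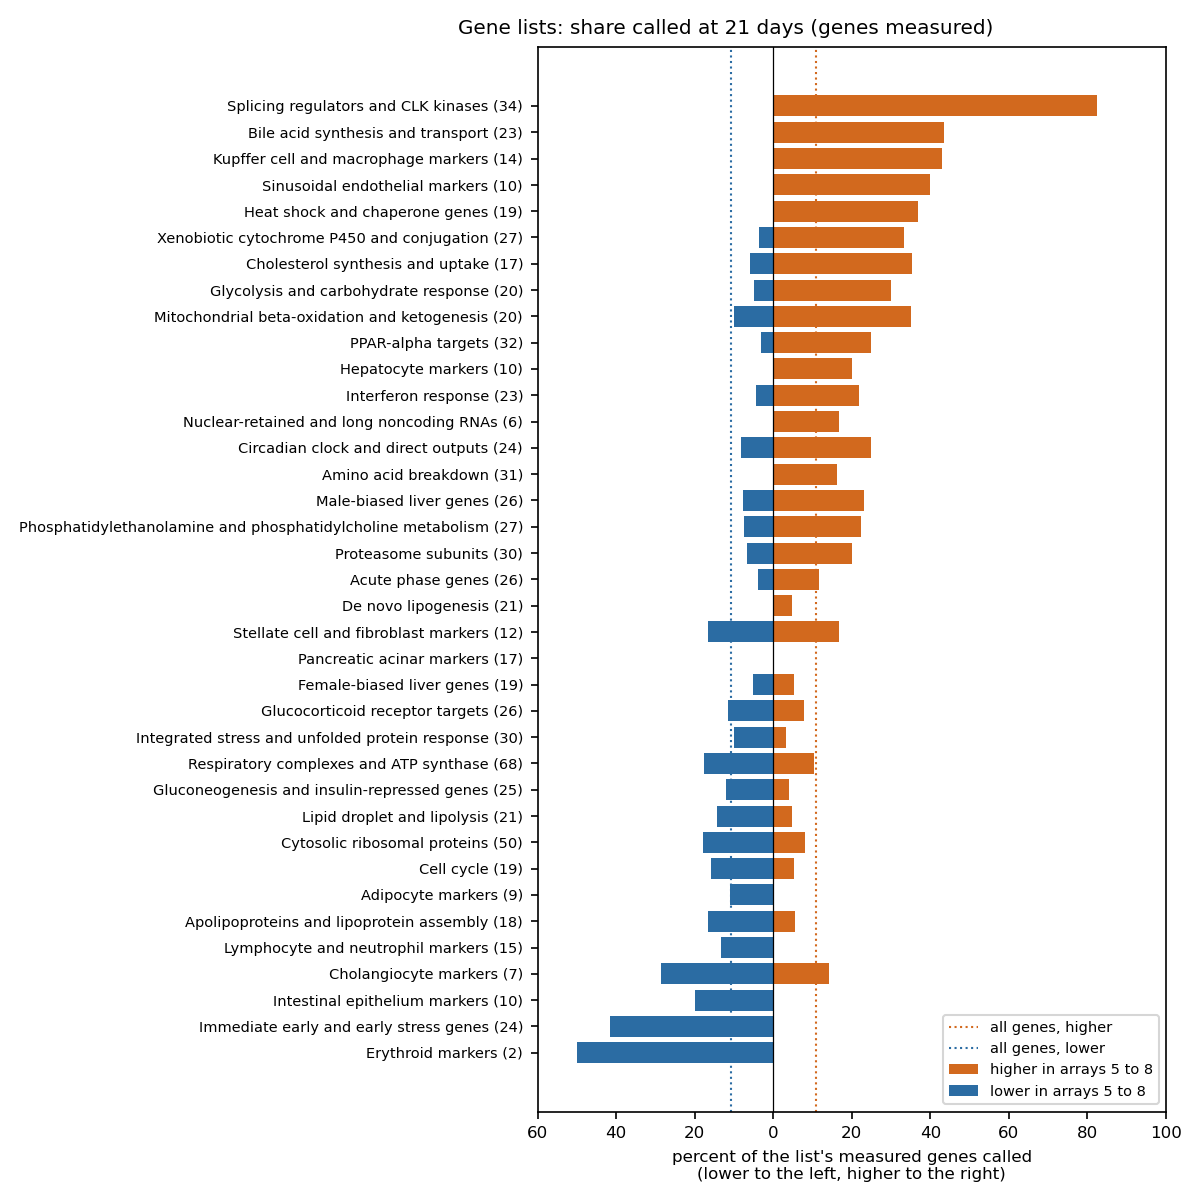
Share of each gene list called at 21 days, in percent of its measured genes (number after the name): orange bars to the right are genes higher in arrays 5 to 8, blue bars to the left are genes lower, and dotted lines mark the share over all genes (11% and 10.8%). Splicing regulators, with 28 of 34 higher, and immediate early genes, with 10 of 24 lower, have bars on one side only.

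Some Kupffer cell and endothelial markers were higher in the high-numbered arrays, but the means of both lists overlapped between the sets. Of 14 measured Kupffer cell and macrophage markers 6 were higher and 0 lower (3 without array 3 or without array 7), among them Clec4f (0.57) and Adgre1 (0.77). Their mean ran from 4.93 to 5.30 on the low-numbered and from 5.26 to 5.53 on the high-numbered arrays. Of 10 sinusoidal endothelial markers 4 were higher and 0 lower, including Stab2 (0.75), and 1 or 2 were higher without array 2, 3, 4, 5, 7 or 8. Their mean ran from 5.32 to 5.95 and 5.63 to 6.27. In bulk tissue more cells of a type and more RNA per cell cannot be told apart. Of 10 hepatocyte markers 2 were higher and 0 lower.

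The remaining marker lists gave few calls. Of 17 pancreatic acinar markers 0 were called with limma (0 at an unadjusted p under 0.05), with means of 3.46, 3.56, 4.64 and 5.14 on the low-numbered and 3.33, 6.23, 3.49 and 4.71 on the high-numbered arrays, array 6 being the highest. Cholangiocyte markers (1 of 7 higher, 2 lower) averaged 3.26 and 3.05, and intestinal markers (0 of 10 higher, 2 lower) averaged 4.35 and 4.17; these 2 means were apart between the sets. Lymphocyte and neutrophil markers (2 of 15 lower), stellate and fibroblast markers (2 of 12 higher, 2 lower), adipocyte markers (1 of 9 lower) and erythroid markers (1 of 2 lower) completed the lists. Over these 10 means and the array median, an exact permutation test of 4 against 4 arrays (2-sided) gave no adjusted p under 0.157, and 2 unadjusted p-values of 0.0286, the smallest that this design allows. An adjusted p under 0.05 would need most of these measures to reach that smallest value at once, so the lack of one says little. The part of these markers in the gene differences above was not tested, except that 3867 genes were called with the acinar mean as a covariate.

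The called genes differed in the length of genome they cover, a property the comparison did not use. Spans, introns included, came from RefSeq gene records for 99.6% of the genes. Genes higher in the high-numbered arrays had a median span of 33.9 kb, those lower 10.8 kb and all genes 17.8 kb. Among genes brighter than the background the medians were 34.9 and 10.6 kb. With the genes in 10 bins of equal size by span, the share called higher was 2.18% in the shortest bin, 11.2% in the fifth and 19.2% in the ninth (median 80.2 kb), and 12.8% in the longest. The share called lower was 17.2% in the second bin (median 2.98 kb) and 6.7% in the eighth. Over the settings tried, the median span of higher genes stayed between 29.8 and 37.7 kb and that of lower genes between 8.58 and 11.1 kb. Across genes, which share the same 8 arrays and are not independent, the correlation of the difference with log10 span was 0.16. For the same numbers at 7 and 14 days this correlation was -0.02, while the medians ran in the same direction, with 23.5 kb for genes called higher and 14.8 kb for those called lower.

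**Figure D3:**
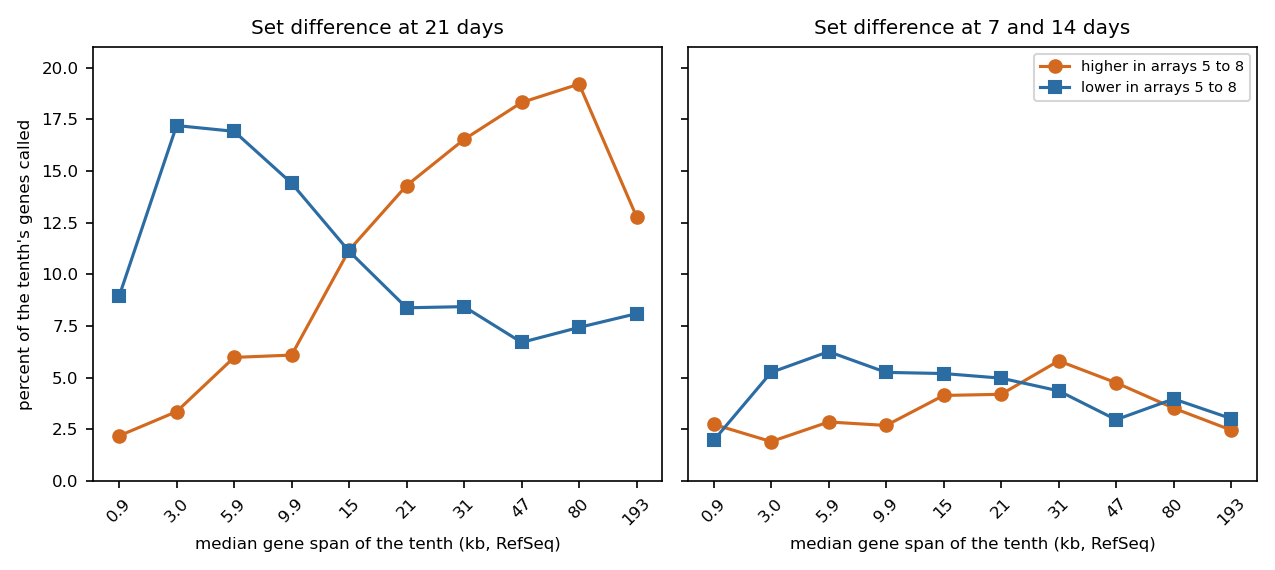
Percent of genes called higher (orange circles) and lower (blue squares) in arrays 5 to 8, in 10 bins of genes ordered by RefSeq span, with each bin's median span in kb on the x axis; the left panel is 21 days and the right panel 7 and 14 days. At 21 days the higher share climbs from 2.18% to 19.2% over the first 9 bins, and the lower share is largest, at 17.2%, in the second.

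The arrays of 7 and 14 days carry the same numbers and share no array with those of 21 days, so the difference by number can be looked at there too. Both comparisons came from 1 fit and share each gene's estimate of spread. A gene with little spread is thus more readily called in both, which favours shared calls. Both times in one contrast gave 1403 called genes (7.8%), 628 higher (3.49%) and 775 lower (4.31%) in arrays 5 to 8. At 7 days alone 239 genes (1.33%) were called, 108 higher (0.6%) and 131 lower (0.728%), and at 14 days alone 206 (1.15%), 121 higher (0.673%) and 85 lower (0.473%). Genes called in the same direction at 21 days and at 7 and 14 days numbered 791, of which 467 were higher and 324 lower, and 3 were called in opposite directions. The 791 were 20.2% of the 21-day calls and 56.4% of those at 7 and 14 days. Of the 21-day calls, 88.1% had the same sign at 7 and 14 days, beside 67.2% of all genes. Among the 21-day calls the median size was 0.55 at 21 days and 0.17 at 7 and 14 days, a gap that choosing genes by their 21-day call itself favours. Over all genes the median size was 0.19 at 21 days, 0.12 at 7 days alone and 0.12 at 14 days alone. With all 42 arrays in the fit 653 genes were called at 7 and 14 days, and with array weights 2815.

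Malat1 and the splicing genes differed by the numbers at the earlier times as well. Malat1 differed by 2.26 at 7 days and 2.77 at 14 days, and Clk1 by 1.38 and 1.67. Of the 34 splicing genes 23 were higher and 0 lower at 7 and 14 days, with a median of 0.59. Over all genes 3.49% were higher and 4.31% lower there. Of the 23 bile acid genes 2 were higher (median 0.01) beside 10 at 21 days, of the 24 immediate early genes 3 were lower beside 10, and of the 19 chaperone genes 2 were higher and 3 lower. Etnppl differed by 0.15 (adjusted p = 0.609) at 7 and 14 days, G0s2 by -0.31 (adjusted p = 0.339) and Vnn1 by 0.30 (adjusted p = 0.336). Whether such differences between times hold is answered by the test of the difference itself.

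That test called 199 genes (1.11%), 95 with a more positive difference at 21 days and 104 with a more negative one, and it rested on array 3. Without that array 0 genes were called (limma; 2351 at an unadjusted p under 0.05), and leaving out the others gave 101 without array 2, 31 without array 4, 42 without array 5, 118 without array 7, 369 without array 6 and 580 without array 1. Of the 199, 194 were called at 21 days, 128 had the same sign and a larger size there and 71 the opposite sign. With arrays centred on their medians 86.3% of 452 calls were positive, and with quantile normalization 36.7% of 169, in place of 47.7%. Among the genes above, Tasor (1.09, adjusted p = 0.0353), Qk (-0.92, 0.0275), Wrnip1 (-0.96, 0.0413), Fignl2 (-0.93, 0.0275), AA386476 (-0.98, 0.0305) and Fos (-0.73, 0.0329) were called. Etnppl was not (0.90, 0.0751), nor was Malat1 (-0.09, 0.914), G0s2 (-0.55, 0.364) or Wee1 (1.37, 0.125). Of the lists set side by side above, 0 of 23 bile acid, 0 of 19 chaperone and 0 of 34 splicing genes were called. Of the 24 immediate early genes 1 was, Fos. Lists of this size would hold less than 1 call at the 1.11% of all genes, so the list counts do not show a difference particular to 21 days. The word reanalysis in the titles divides the same times, so time and what that word stands for cannot be told apart here.

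**Figure D4:**
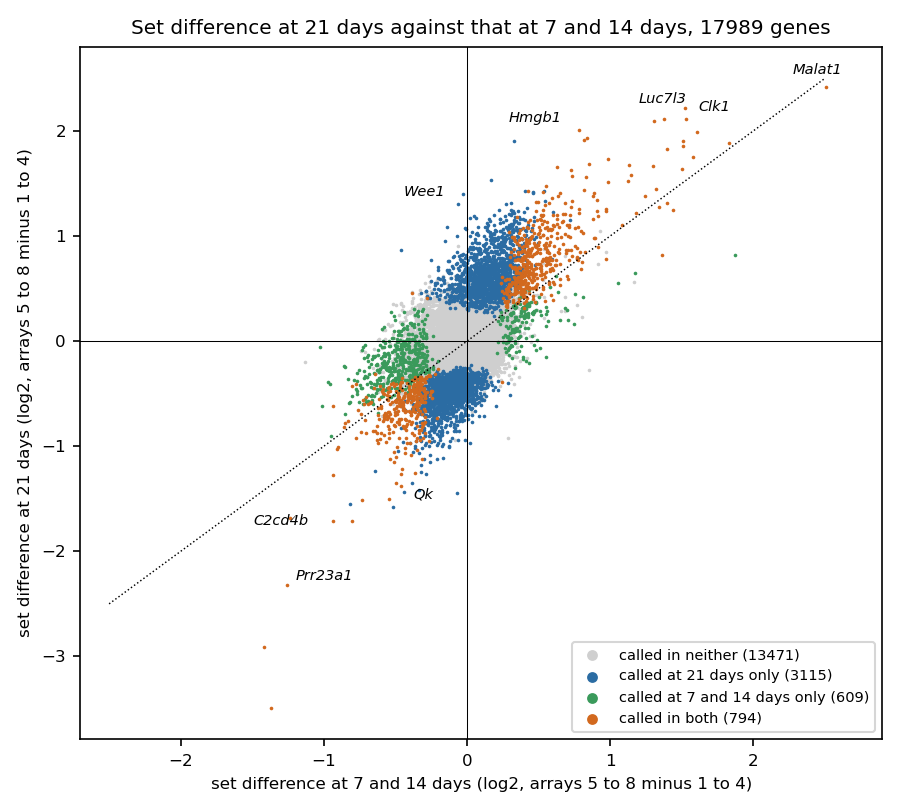
Difference between arrays 5 to 8 and arrays 1 to 4 at 21 days (y axis) against that at 7 and 14 days (x axis), log2, 1 point per gene, coloured by where the gene was called, with the dotted line marking equal differences. Malat1 lies close to the line, and 3115 genes were called at 21 days only. Most genes called at 21 days lie farther from 0 on the y axis than on the x axis, as a call at 21 days itself favours.

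The 21-day diet change was fitted over all 42 arrays, with both sets of 21-day arrays weighted equally. It called 150 genes (0.834%), 96 higher (0.534%) and 54 lower (0.3%) on HFD. A fit of 4 groups that ignores the numbers called 126, each of them among the 150. Taking same-numbered controls and 21-day arrays as blocks, and so with fewer controls, gave 27, also among the 150. The diet change averages the same 8 arrays that the set difference splits, and 33 of the 150 diet genes (22.0%) were also called between the sets, beside 21.7% of all genes. Both sets lay on the same side of the controls for 149 of the 150, as a diet call itself favours, the exception being the membrane protein Tlcd1 (-0.04 in the low-numbered and 0.78 in the high-numbered arrays, chosen after its values were seen). The median diet change of the 150 was 0.56 in size and their median set difference 0.28, against a median set difference of 0.19 over all genes. For 25 of them the set difference exceeded the diet change.

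The genes called between the sets mostly lay on either side of the controls. For 3783 of the 3909 (96.8%) the low-numbered mean and the high-numbered mean stood on opposite sides of the control mean, beside 62.7% of all genes, a position that a large set difference itself favours. Compared with the same 18 controls, the low-numbered arrays gave 1049 calls (5.83%), 476 higher (2.65%) and 573 lower (3.19%), and the high-numbered arrays 583 (3.24%), 352 higher (1.96%) and 231 lower (1.28%). These comparisons share their controls. The low-numbered count rested on array 3, without which it was 109, and was 567 without array 2 and 487 without array 4. The high-numbered count was 207 without array 5 and 337 without array 6. With same-numbered controls and 21-day arrays as blocks, and so with fewer controls, the low-numbered count was 299 and the high-numbered count 11. The balance moved with the scale: centring the arrays gave 21.0% higher in place of 45.4% for the low-numbered and 81.1% in place of 60.4% for the high-numbered arrays.

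Of the 33 genes called in both comparisons, 18 diet rises were larger in the high-numbered arrays and 2 in the low-numbered arrays, and 11 diet falls were larger in the low-numbered arrays and 2 in the high-numbered arrays. In Vnn1, controls lay at 2.96 to 3.60, and the rise was 5.13-fold in the low-numbered and 9.91-fold in the high-numbered arrays. In Rgs16 the rise was 3.09-fold and 7.25-fold, and in Abcd2 2.22-fold and 4.33-fold. All 8 arrays of each gene stood above the mean of the controls. The oxidation genes Eci1 (0.18 and 0.71), Decr1 (0.30 and 0.75), Hadhb (0.13 and 0.59) and Acat1 (0.13 and 0.60) and the droplet enzyme Hsd17b13 (0.05 and 0.56) had most of their rise in the high-numbered arrays.

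G0s2 was 1 of the 2 rises that were larger in the low-numbered arrays, the other being the phosphatidylcholine transfer protein Pctp (1.19 and 0.71, chosen after its values were seen). G0s2 spanned 5.23 to 6.88 on the controls, and its diet change was 1.37 (adjusted p = 1.68e-04) in the low-numbered and 0.51 (adjusted p = 0.187) in the high-numbered arrays. Over all 8 arrays it rose by 0.94 (adjusted p = 6.24e-04), with 7 of 8 arrays above the control mean.

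Among the falls, Etnppl lay at 8.59 to 9.50 on the controls, above all 8 arrays of 21 days. It was 4.13-fold lower in the low-numbered and 2-fold lower in the high-numbered arrays. Serpina4-ps1 was 8.01-fold lower in the low-numbered arrays and 1.72-fold lower in the high-numbered ones, where the difference from controls was not called (adjusted p = 0.434). Gstm2 was 1 of the 2 falls larger in the high-numbered arrays (-0.17 and -1.0). Of the PPAR-alpha targets 19 of 32 rose and 1 fell on HFD, with a median change of 0.54 in the low-numbered and 0.64 in the high-numbered arrays. Of the beta-oxidation genes 8 of 20 rose and 0 fell, with medians of 0.16 and 0.46. Over all genes 0.534% rose and 0.3% fell on HFD. For diet, 0 of the 34 splicing genes and 0 of the 24 immediate early genes were called with limma (1 and 2 at an unadjusted p under 0.05), beside 0.834% of all genes, so that lists of this size would hold less than 1 call at that share.

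Several of the largest diet changes had no called set difference. Cyp2b9, a P450 that is induced by fat, read 5.60, 6.66, 6.14 and 6.39 on the low-numbered and 4.42, 6.55, 6.96 and 6.82 on the high-numbered arrays, against 2.10 to 5.33 (median 2.53) on the controls. Array 5, at 4.42, was the lowest of the 8, and the set difference of -0.01 had a 95% interval of -1.32 to 1.30, which a difference of over 2-fold would fit. Acmsd changed by -1.21 and -1.24 (95% interval of the set difference -0.32 to 0.26) and Cyp4a31 by 2.49 and 2.54 (-0.61 to 0.71), and these intervals leave no room for a 2-fold set difference. Mfsd2a, a transporter of lysophospholipids, changed by 2.85 and 2.32 (interval -1.33 to 0.27), Obp2a, an odorant-binding lipocalin, by -0.99 and -1.14 (-0.66 to 0.36), Lpl, lipoprotein lipase, by -1.21 and -0.82 (-0.13 to 0.90), and Cyp7a1 by -1.64 and -1.21 (-0.49 to 1.33). The set difference was not called for any of these 7 genes.

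**Figure D5:**
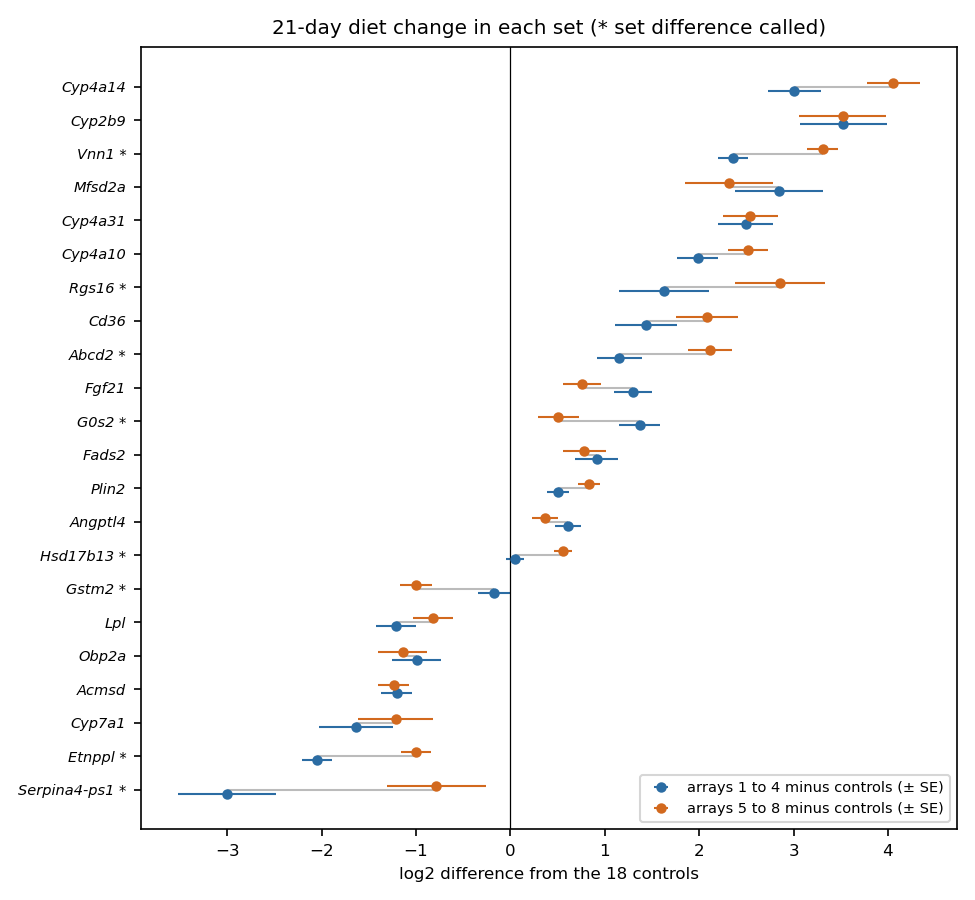
Log2 difference from the 18 controls (x axis, mean ± SE of the fit) of the 22 named genes called for the 21-day diet, blue for arrays 1 to 4 and orange for arrays 5 to 8; an asterisk marks genes with a called set difference. Etnppl (-2.05 and -1.0), G0s2 (1.37 and 0.51) and Vnn1 (2.36 and 3.31) differ between the sets, while Acmsd and Cyp2b9 lie together.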

How the data were processed

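Liver RNA was hybridised to 42 Affymetrix whole-transcript arrays. The authors made the deposited log2 values with RMA in Affymetrix Expression Console 1.1, per the submitters' processing notes; no source used here names the genome build. RMA brings the arrays' distributions close together, so a shift of the whole RNA pool is not visible. The deposited medians of the 8 arrays still ran from 3.12 to 3.28. Of 32624 probe sets, 1 with missing values was left out, 19558 had 1 gene symbol in the platform annotation, 1469 several and 11596 none. The brightest single-symbol probe set stood for each of 17989 genes, and 841 genes had more than 1. Arrays give no read depth; their number limits the precision.

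Sets were formed from the numbers in the titles. limma 3.58.1 in R 4.3.3 was fitted to the 24 HFD arrays in 6 groups (18 residual degrees of freedom) for set differences, and to all 42 arrays in 7 groups (35) for diet changes. The p-values were 2-sided, adjusted by Benjamini-Hochberg over all genes, and called under 0.05; genes in the text carry these limma values. Marker means were compared by exact permutation. Spans and promoters came from RefSeq (GRCm38.p6), matched by symbol. The procedure was tested on simulated data with noise drawn independently for each gene and array. Such data hold no deviation that genes share on an array, so the test does not give the rate of false calls here.

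Genes were named by a rule: the 12 largest called rises and falls, up to 2 called members per direction of each list, a panel of 40 genes (36 measured) and the 6 largest diet rises and falls, passing over predicted genes, small RNAs and large receptor and antigen families. Others are said to be picked later. The sets, the panel and the 27 pathway and 10 marker lists were chosen with earlier results of these data known. Alternatives covered the scale, a filter on dim genes, array weights, the variance model, an acinar covariate, all probe sets, the arrays in the fit, the controls, a replicate block and each 21-day array left out. The numbers were not taken as pairing arrays across groups, and the labels do not say what they stand for. Same-numbered controls and 21-day arrays correlated at -0.33 to 0.16, and 1 of 8 pairs passed 0.1, which cannot tell whether the numbers pair the arrays.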

Additional observations from a re-analysis of the deposited data

Results flagged for a closer look

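At 5 named genes the set difference at 21 days differed from that at 7 and 14 days by the test of the difference itself (limma, adjusted p under 0.05). It was more negative by 0.98 in AA386476 (adjusted p = 0.0305), 0.93 in Fignl2 (0.0275), 0.92 in Qk (0.0275) and 0.96 in Wrnip1 (0.0413), that is log2 -0.98, -0.93, -0.92 and -0.96, and more positive by 1.09 in Tasor (0.0353). None of these was called without array 3, which left 0 calls over all genes (2351 at an unadjusted p under 0.05).

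Single arrays stood far from the other 3 of their set by Dixon's ratio in 25 of 278 sets of values examined, while chance alone marks about 1 in 20. Array 1 stood apart for Cebpb (6.36), Crtc2 (4.66), Hsd3b5 (8.74), Idi1 (9.63), Irs2 (3.33), Lcn2 (4.1) and Obp2a (4.0). Array 3 stood apart for Hsd17b13 (8.71), Ihh (5.13), Srebf1 (7.74) and Tat (11.07), and array 4 for C2cd4b (5.63), Lpcat4 (2.95) and Rmrp (8.25). Array 5 stood apart for Cyp2b9 (4.42), Cyp4a10 (6.53), Qk (5.62) and Rgs16 (8.46), and array 8 for Arntl (3.78), Ddit4 (4.32) and Noct (5.17). Among the marker means, array 6 was low for hepatocyte (11.67) and stellate and fibroblast markers (4.77) and high for lymphocyte and neutrophil markers (2.87), and array 2 was low for cholangiocyte markers (3.09). Array 6 also carried the highest acinar mean of the 8, at 6.23.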

How the results depend on the processing

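Of the 128 named genes, 95 were called between the sets at 21 days; 62 of these kept the call under each setting that tested them, 33 lost it under at least 1, and 0 changed direction. There were 17 settings, of which the filter on dim genes left out 2 genes, Moxd1 and Plk1. Cebpb, Irf1 and Usp17ld lost it with all 42 arrays, Moxd1 and Nr3c1 with the 8 arrays alone and Uqcrb with quantile normalization. Of the 33 named genes not called, 7 gained a call: Cd36 without array 5, Plin2 and Hsd3b5 without array 1, Cyp4a14 without array 1, with the 8 arrays alone or with all 42, Fkbp5 without array 6 or with arrays centred, Srebf1 without array 8 or with quantile normalization, and Cyp8b1 with quantile normalization. The count of 3909 stayed within 1.5 times under each setting except the fit of the 8 arrays alone (2268). That fit has fewer residual degrees of freedom. With single arrays left out the count ran from 2807 to 3779. The genes called were less steady than their count. Of the 3909, 2934 were called again in the same direction with quantile normalization and 2892 with arrays centred. With single arrays left out, 2685 to 3346 were. At 7 and 14 days the 1403 calls became 2815 with array weights and 653 with all 42 arrays. The difference between the times (199 calls) became 452 with arrays centred on their medians, 695 with array weights, 80 with a variance trend and robust moderation and 36 with all 42 arrays, and 0 to 580 with arrays left out. For the 21-day diet, 126 to 140 calls is the range without set terms and with single arrays left out, beside 150. Odd-numbered controls gave 103, even-numbered controls 108, controls and 21 days alone 116, and quantile normalization 185. The fit with the replicate block, over same-numbered arrays of both groups and so with fewer controls, gave 27 diet calls. For the low-numbered and high-numbered arrays it gave 299 and 11. Same-numbered arrays did not correlate best in any of the 8 cases, but this cannot tell whether the numbers pair the arrays. Against controls, the low-numbered arrays (1049 calls) gave 561 with odd-numbered controls, 537 with controls and 21 days alone and 109 to 1160 with arrays left out, and the high-numbered arrays (583) 946 with array weights, 271 with controls and 21 days alone and 207 to 607 with arrays left out. The fit of controls and 21 days alone for these sets was added after the data were seen, as was the scaling of the marker means, which left 0 of 11 measures with an adjusted p under 0.05 (smallest 0.157; 0.105 by quantile and 0.314 by centring; 2, 3 and 1 at an unadjusted p under 0.05). The causes were not tested. Array signal limits genes near the background of 2.86, above which 67.5% of genes lay.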

Other observations

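Gene classes formed from symbols after the values were seen gave further counts between the sets at 21 days, beside 11% of all genes higher and 10.8% lower. Of 82 cytochrome P450 genes 16 were higher and 5 lower in the high-numbered arrays (19.5% and 6.1%). Of 308 Zfp zinc finger genes, many of them repressors of repeat elements, 52 were higher and 25 lower (16.9% and 8.12%). Of 267 microRNA genes, whose probes read precursor or host RNA, 11 were higher and 34 lower (4.12% and 12.7%), and of 47 small nucleolar RNA genes 8 were higher and 6 lower. Of 929 olfactory receptor genes, most of which are silent in liver and mark the background, 7 were higher and 25 lower (0.753% and 2.69%).

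The 5S rRNA gene n-R5s136, passed over by the naming rule as a small RNA, read 12.34, 12.15, 12.08 and 11.46 on the low-numbered and 7.22, 9.30, 10.12 and 9.74 on the high-numbered arrays (log2 -2.91, adjusted p = 8.85e-05 with limma). The sets did not overlap. The largest fall of all genes was that of the olfactory receptor gene Olfr767, which read 7.62, 7.40, 7.83 and 6.62 and 3.55, 4.27, 3.87 and 3.83 (log2 -3.49, adjusted p = 2.33e-05 with limma).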
